A study of Mus musculus with 48 samples.

Results

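The coat proteins of the lipid droplet and the enzymes that make its triglyceride were followed as 10 genes, Plin2, Plin4 and Plin5 (perilipins), Cidea, Cideb and Cidec (the CIDE proteins), and Gpam, Mogat1, Dgat1 and Dgat2 (acyltransferases), in the livers of 48 FCG mice. The genes were taken by symbol from a table of 55414 Ensembl gene identifiers, and all 10 were found and passed the filter on low counts. Cidea passed it through the group where it was highest: all 6 XX Te Intact mice but only 3 of the other 42 mice reached the level that the filter asks of 6 mice. Its comparisons with that group are thus a description, and the counts of members that passed in the main setting are also given without it. Counts under other settings and counts of correlated pairs include Cidea. In FCG mice, on a C57BL/6 background, Sry is deleted from the Y chromosome and, where present, comes from a transgene on an autosome, so that gonads and sex chromosomes are inherited apart. The groups were XX with ovaries (XX Ov, labelled XX), XX with testes (XX Te, XX;SryTg), XY with ovaries (XY Ov, XY-) and XY with testes (XY Te, XY-;SryTg), each either Intact or gonadectomized (GDX), with 6 mice and 1 RNA-seq library per mouse in each of the 8 groups. All mice ate a high-fat diet (HFD) with 60% of its calories from fat from an age of 15 to 17 weeks. Per the labels Intact mice ate it for 11 weeks and GDX mice, operated at 75 days of age, for 15 weeks. Loss of the gonads, the operation, the longer diet and the later age at its end thus cannot be told apart within a gonad. The methods of the paper give other lengths of diet for both cohorts, and the labels were followed. Whole liver was taken after a fast, and XX with ovaries and XY with testes are the FCG counterparts of females and males.

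Hepatocytes store surplus fatty acids as triglyceride in droplets, which are wrapped by a single phospholipid layer and by perilipins that control the access of lipases. Gpam, the mitochondrial glycerol-3-phosphate acyltransferase, starts the main route of synthesis, Mogat1 acylates monoacylglycerol in a side route, and Dgat1 and Dgat2 add the last fatty acid. CIDE proteins act at contacts between droplets, where Cidec and Cidea let lipid pass from smaller into larger droplets, while Cideb is the CIDE protein of normal hepatocytes and acts in the lipidation of very-low-density lipoprotein. Cidea, Cidec and Plin4 are best known from adipocytes, and Cidea and Cidec are known to appear in fatty liver.

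The promoters of Plin2, Plin4 and Cidec are shown because the levels of these genes rose and fell together from mouse to mouse in both cohorts. Each runs from 250 bases before to 50 bases after an annotated start in RefSeq (GRCm38.p6, not the build of the counts), 5′ to 3′ on the gene's strand, all being on the minus strand, at chr4:86670010-86670309 for Plin2, chr17:56109733-56110032 for Plin4 and chr6:113435711-113436010 for the upstream start of Cidec. Capitals mark matches, on either strand, to CCAAT (the box bound by NF-Y), AGGTCA (a nuclear receptor half-site), AGAACA (the half-site of androgen and glucocorticoid receptors) and CACGTG (the E-box).
Plin2: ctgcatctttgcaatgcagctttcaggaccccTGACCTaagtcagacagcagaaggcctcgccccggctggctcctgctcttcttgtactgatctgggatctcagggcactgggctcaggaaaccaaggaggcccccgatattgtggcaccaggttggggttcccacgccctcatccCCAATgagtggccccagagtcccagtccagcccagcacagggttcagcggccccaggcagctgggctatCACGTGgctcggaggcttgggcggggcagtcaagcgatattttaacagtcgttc
Plin4: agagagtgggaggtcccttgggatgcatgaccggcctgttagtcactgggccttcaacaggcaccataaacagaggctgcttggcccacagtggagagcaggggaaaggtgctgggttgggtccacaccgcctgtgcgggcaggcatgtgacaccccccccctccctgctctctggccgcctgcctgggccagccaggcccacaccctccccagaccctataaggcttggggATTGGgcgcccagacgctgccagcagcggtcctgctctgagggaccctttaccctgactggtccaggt
Cidec: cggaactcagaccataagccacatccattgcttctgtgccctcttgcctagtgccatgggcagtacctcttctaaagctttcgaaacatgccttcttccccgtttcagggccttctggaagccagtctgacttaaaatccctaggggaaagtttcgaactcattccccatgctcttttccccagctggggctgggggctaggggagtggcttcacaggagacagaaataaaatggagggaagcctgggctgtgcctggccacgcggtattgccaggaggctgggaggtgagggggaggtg
Plin2 held the box of NF-Y, the nuclear receptor half-site and the E-box, Plin4 held the box of NF-Y, and Cidec held none of the 4 at either of its annotated starts. Matches did not overlap each other in these windows. Of 32851 promoters of this length, 37.4% held the box of NF-Y, 16.3% the nuclear receptor half-site, 19.0% the androgen and glucocorticoid receptor half-site and 7.15% the E-box. Among the other members with an entry, Plin5 and Gpam held the box of NF-Y and the nuclear receptor half-site over their annotated starts. Mogat1 held the box of NF-Y, and Cideb held only the androgen and glucocorticoid receptor half-site. A match is a run of letters and was not tested as a binding site.

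Each mouse had between 13071874 and 20045141 reads on genes. Xist, the RNA that coats the inactive X, was higher in every XX mouse (lowest 166 reads per 1e+06 reads on genes, CPM) than in any XY mouse (highest 7.5 CPM), and Ddx3y, Kdm5d, Uty and Eif2s3y on the Y chromosome separated the genotypes the other way. XX Te Intact replicate 4 also held some reads of Y-linked genes (62 for Ddx3y, 63 for Eif2s3y and 31 for Uty), and without it the counts of members that passed were 6 for the gonadal, 9 for the chromosomal, 7 for the ovariectomy and 4 for the castration effect, as with it, while that for the chromosomal effect in Intact mice went from 3 to 2. The share of reads outside genes was 3.47% to 6.20% in Intact and 8.52% to 11.3% in GDX mice, so this measure separated the cohorts, and within the GDX cohort it was lower in XX (8.52% to 10.1%) than in XY mice (9.98% to 11.3%). Reads on several loci made up 11.0% to 18.9% (median 16.4%) in XY Te Intact mice. The medians of XX Ov, XY Ov and XX Te Intact mice were 11.9%, 12.4% and 13.6%. Unmapped reads reached 16.5% in XY Te Intact replicate 2. The part of these measures in the comparisons was not tested. CPM below are scaled by TMM factors. With library totals in place of TMM the median log2 fold change of all tested genes moved by 0.21 in the ovariectomy effect, by 0.20 in the castration effect, by -0.10 in the chromosomal effect, by -0.18 in it within GDX mice, by -0.16 in the interaction of chromosomes with GDX and by -0.17 in that of gonads with chromosomes. Of 6 adipocyte markers, Adipoq had at most 1 read in any Intact mouse, Lep and Plin1 likewise, and the 5 hepatocyte markers (Alb, Apoa1, Ttr, Tf and Apob) summed to between 72357 and 162627 CPM.

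Per kilobase of exon (lengths from the NCBIM37 annotation), Dgat2 and Plin2 were the most abundant members over the 48 mice, at 184 ± 35.3 and 129 ± 47.3 CPM per kb (SD, n = 48). Dgat2, the enzyme that carries most triglyceride synthesis from newly made fatty acids in liver, was above Plin2, the main droplet coat of hepatocytes, in 40 of 48 mice. Gpam followed with 34.1 ± 11.8 CPM per kb, below Plin2 in all 48 mice. Cideb (19.3 ± 4.04), Plin5 (13.6 ± 3.19) and Cidec (9.39 ± 11.0 CPM per kb) came next, and Plin4 (5.71 ± 4.13) and Dgat1 (5.08 ± 0.679 CPM per kb) did not separate, Plin4 being higher in 24 of 48 mice. Cidec and Plin4 also overlapped, Cidec being higher in 29 of 48. Mogat1 (3.03 ± 2.27) and Cidea (0.566 ± 1.41 CPM per kb) were lowest. Spread between mice of the same group set the members further apart: in Intact mice the SD on the log2 scale was 1.12 for Plin4, 1.11 for Cidea, 0.89 for Cidec and 0.78 for Mogat1, but 0.15 for Dgat1 and 0.29 for Dgat2. Among all tested genes the SD of Plin4 lay at percentile 98.9 and that of Dgat1 at percentile 5.38.

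**Figure D1:**
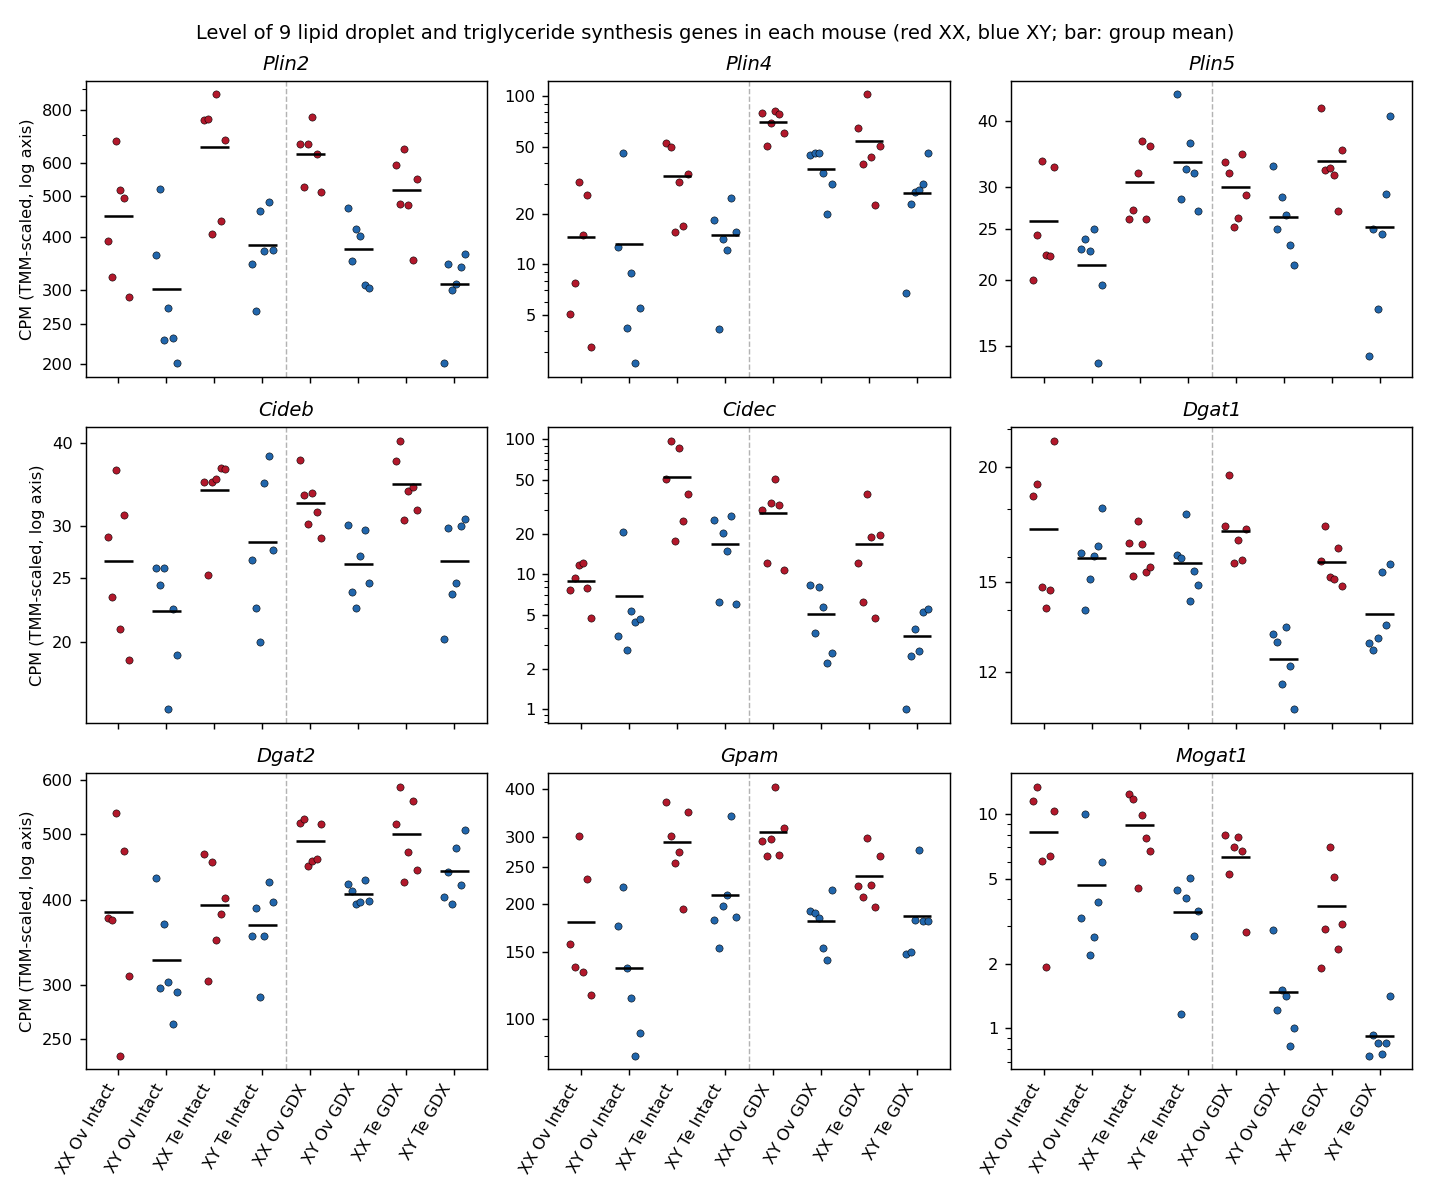
Level of 9 members in each mouse, by group, in TMM-scaled CPM on log axes, with red points for XX, blue points for XY and a bar for the mean of 6 mice. Cidec reaches 98.1 CPM in XX Te Intact against at most 12.2 CPM in XX Ov Intact, and in the GDX cohort (right of the dashed line) the highest XY mouse stands at 8.39 CPM.

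The gonadal effect asks how Ov Intact differ from Te Intact mice, with 12 mice on each side. Cidea, Cidec, Gpam, Plin5, Plin2 and Cideb were lower with ovaries, so that 6 of 10 members had an adjusted p below 0.05 in the test of edgeR. Without Cidea it was 5 of 9. Of the tested genes as a whole 25.3% passed, 14.1% being higher and 11.3% lower in Ov. With library totals in place of TMM, 2145 genes were higher and 1009 lower, against 2171 and 1736. The median log2 fold change was -0.44 over the members and 0.04 over all tested genes. Cidea and Cidec stood apart from the other members in size, and none of the 10 separated the arms without overlap.

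Cidea, a droplet fusion protein of brown fat, was nearly silent with ovaries. The 6 XY Ov Intact mice had 0 reads each and the 6 XX Ov Intact mice had 0, 0, 1, 1, 1 and 0 reads. XX Te Intact mice had 82, 124, 13, 114, 16 and 23 reads, and XY Te Intact mice 14, 0, 47, 5, 9 and 4. So every Te mouse but 1 was above every Ov mouse. The pooled level was 2.37 CPM in Te and 0.0150 CPM in Ov, a ratio of 158 (95% counting interval, 53.7 to 769), with an adjusted p of 1.81e-07 in edgeR's test, given as a description since the filter let Cidea in through the Te Intact mice. Among XY mice, with no read in the Ov group, Te was at least 29.8-fold higher against a floor of 3 reads over the group. These intervals cover counting error only, and mice of the same group differed by more. A noncoding RNA annotated on the opposite strand overlaps Cidea by 540 bases and had 77 reads over all 48 mice. Whether counting used strand is not given in the sources used here, so a part of these reads may be exchanged.

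**Figure D2:**
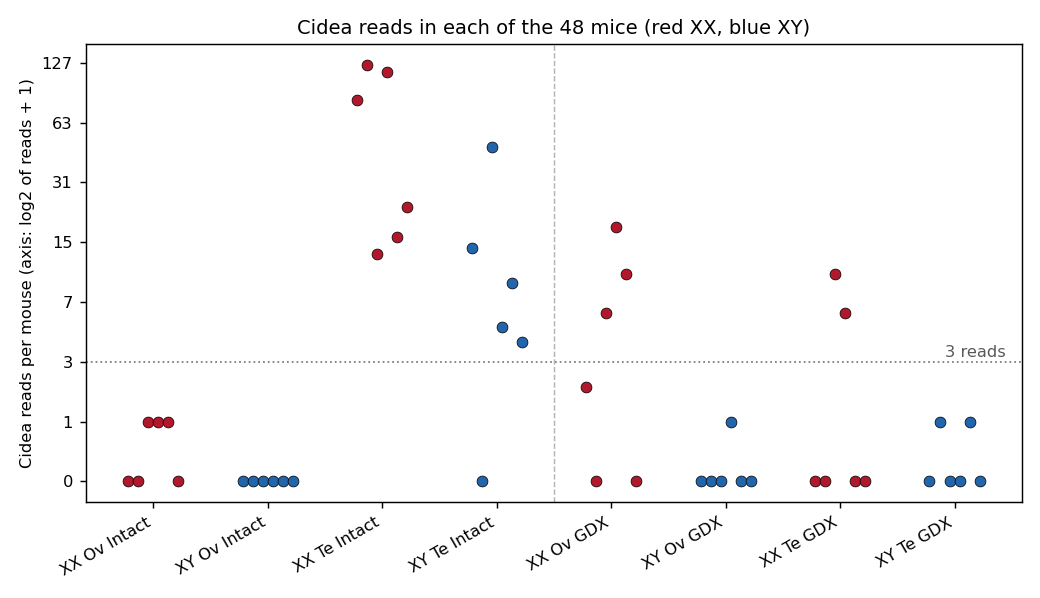
Cidea reads in each mouse, by group, on an axis of log2(reads + 1), with red points for XX, blue points for XY and a dotted line at 3 reads. All Ov Intact mice have 0 or 1 read, and XX Te Intact mice have 13 to 124.

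Cidec, the fusion protein that makes large droplets, was 3.78-fold higher with testes (log2 fold change Ov minus Te -1.92 ± 0.36 SE, adjusted p = 8.56e-05, edgeR). Its level ran from 2.73 through a median of 6.53 to 20.8 CPM in the 12 Ov mice and from 6.07 through 25.2 to 98.1 CPM in the 12 Te mice. The highest Ov mouse, XY Ov Intact replicate 2, lay above several Te mice, so the arms overlapped, and 6 of 12 Ov mice lay below all Te mice. Gpam (log2 fold change -0.66 ± 0.15 SE, adjusted p = 0.00120, edgeR) and Plin5 (-0.45 ± 0.12, adjusted p = 0.00560), the perilipin that ties droplets to mitochondria, were also lower in Ov. For Plin5, 10 of 12 Ov mice were below every Te mouse. Plin2 (-0.44 ± 0.15 SE, adjusted p = 0.0232, edgeR) and Cideb (-0.35 ± 0.10, adjusted p = 0.0100) were lower by smaller amounts, and both lost the call when the Intact groups were fitted alone (adjusted p = 0.105 and 0.0717). Plin4 had a log2 fold change of -0.67 ± 0.35 SE with an adjusted p of 0.144 in edgeR's test. This rested on XY Ov Intact replicate 2, the mouse with the highest Plin4 of its group, without which the log2 fold change was -1.16 and the adjusted p 0.00591. Dgat1 (0.05), Dgat2 (-0.10) and Mogat1 (0.15 on the log2 scale) did not pass.

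Markers of other cells also moved with the gonad, to be read against the 25.3% of all tested genes that passed. Of the 6 adipocyte markers 2 were tested, and Cfd was lower in Ov (log2 fold change -3.86), their sum being 2.06 to 5.60 CPM in Ov Intact and 5.73 to 41.6 CPM in Te Intact mice, with Adipoq, Lep, Plin1 and Retn at no more than 3 reads in any of these mice. Of 6 Kupffer cell and macrophage markers 4 were higher in Ov, their sum being 266 to 999.5 CPM in Ov Intact and 215 to 680 CPM in Te Intact mice, and 3 of 4 B and T cell markers were higher in Ov as well. In the other lists 0 of 4 neutrophil, 1 of 5 hepatocyte (lower in Ov) and 1 of 4 cholangiocyte markers (lower) passed. So did 1 of 4 sinusoidal endothelium and 1 of 4 stellate cell and fibroblast markers, both higher in Ov. In whole liver, fewer cells of a type and less RNA per cell cannot be told apart, and the part of these cells in the members' levels was not tested.

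Castration, Te GDX against Te Intact, asks what follows the loss of testes together with the longer diet and the later age. Of the members 4 passed, 3 lower and 1 higher in GDX, while 63.3% of the tested genes passed, 29.9% lower and 33.4% higher, so the members' share is below the background. Without Cidea, 3 of 9 passed. Library totals gave 7296 higher and 3211 lower genes, against 5147 and 4612 with TMM. Cidea had 0, 0, 10, 6, 0 and 0 reads in XX Te GDX mice and 0, 1, 0, 0, 1 and 0 in XY Te GDX mice. Against the Te Intact mice this is a pooled ratio of 27.1 (95% counting interval, 17.0 to 46.2) with an adjusted p of 3.22e-07 in edgeR's test, again given as a description. Cidec was 3.88-fold lower (SE 0.36 on the log2 scale, adjusted p = 1.11e-05, edgeR), to a median of 5.40 CPM (lowest 0.997, highest 39.4) over 12 mice. Here 7 of 12 castrated mice were below every Te Intact mouse. Mogat1 fell by 1.57 (SE 0.28, adjusted p = 5.95e-06, edgeR), from a median of 4.79 (1.17 to 12.4) to 1.66 CPM (0.747 to 7.0). Dgat2 rose by 0.30 (SE 0.09, adjusted p = 0.00456, edgeR), and 6 of 12 castrated mice were above every Te Intact mouse. Plin2 (log2 fold change -0.32 ± 0.15 SE, adjusted p = 0.0507, edgeR) and Plin4 (0.76 ± 0.34, adjusted p = 0.0505) just missed the threshold, Plin4 changing sign (-0.98) with the share of reads outside genes as a covariate over all mice, and leaving out a single mouse brought Plin2 under it in 17 and Plin4 in 14 of 48 cases.

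Ovariectomy, Ov GDX against Ov Intact, gave 7 members that passed, 5 higher and 2 lower in GDX, while 69.4% of the tested genes passed, 36.0% higher and 33.4% lower, a share close to that of the members. Without Cidea, 7 of 9 passed. Library totals gave 7355 higher and 3769 lower genes, against 5554 and 5141 with TMM. Among the members that passed, Plin4, a perilipin with a long amphipathic repeat, rose most, by 1.86 on the log2 scale (SE 0.35, adjusted p = 1.4e-05, edgeR). Its level ran from 2.58 through a median of 8.31 to 45.9 CPM in Ov Intact and from 19.99 through 48.1 to 81.6 CPM in Ov GDX mice. Here 6 of 12 Ov GDX mice were above every Ov Intact mouse. Gpam rose by 0.59 (SE 0.15), Plin2 by 0.40 (SE 0.15), Dgat2 by 0.34 (SE 0.09) and Cideb by 0.26 (SE 0.10), with adjusted p of 0.000704 for Gpam and 0.0195 for Cideb in edgeR's test. Mogat1 fell by 1.03 (SE 0.27, adjusted p = 0.000715, edgeR), from a median of 6.01 (1.93 to 13.4) to 2.85 CPM (0.826 to 7.99). Dgat1 fell by 0.18 (SE 0.06), a direction that turned with library totals (0.04). Cidec had a log2 fold change of 0.61 ± 0.36 SE (adjusted p = 0.125, edgeR), which passed without XY Ov Intact replicate 2 (adjusted p = 0.0106). Cidea had 2, 0, 6, 18, 10 and 0 reads in XX Ov GDX mice and 1 read among the 6 XY Ov GDX mice, a log2 fold change of 2.22 with an adjusted p of 0.335 in edgeR's test.

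Markers of other cells also moved with the operations, to be read against the 69.4% and 63.3% of all tested genes that passed after ovariectomy and castration. After ovariectomy 3 of 4 neutrophil, 3 of 6 Kupffer cell and macrophage and 2 of 4 B and T cell markers were lower, and none of these was higher. Of the other lists, 4 of 5 hepatocyte (2 higher) and 3 of 4 stellate cell and fibroblast markers (2 higher) passed. So did 2 of 4 sinusoidal endothelium (1 higher) and 2 of 4 cholangiocyte markers (2 higher), and 0 of the 2 tested adipocyte markers. The neutrophil sum was 1.71 to 785 CPM in Ov Intact and 0.714 to 47.7 CPM in Ov GDX mice, and the Kupffer cell and macrophage sum 266 to 999.5 and 198 to 716 CPM. After castration 2 of 4 neutrophil markers and 1 of the 2 tested adipocyte markers (Cfd) were lower, 1 Kupffer cell and macrophage marker was higher and 1 lower, and 1 B and T cell marker was higher. Of the other lists, 3 of 5 hepatocyte (2 higher) and 2 of 4 stellate cell and fibroblast markers (2 higher) passed. So did 2 of 4 sinusoidal endothelium (1 higher) and 3 of 4 cholangiocyte markers (2 higher). The neutrophil sum was 1.64 to 116 CPM in Te Intact and 0.0786 to 70.3 CPM in Te GDX mice, and the adipocyte sum 5.73 to 41.6 and 4.02 to 16.2 CPM. Their part in the members' changes was not tested.

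The share of reads outside genes moved with both operations. With it as a covariate over all 48 mice, which also takes out the difference between cohorts, 0 members passed in either operation, and with its deviation from the cohort mean as the covariate, a choice made after the data were seen, 5 members passed in the castration and 7 in the ovariectomy effect.

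**Figure D3:**
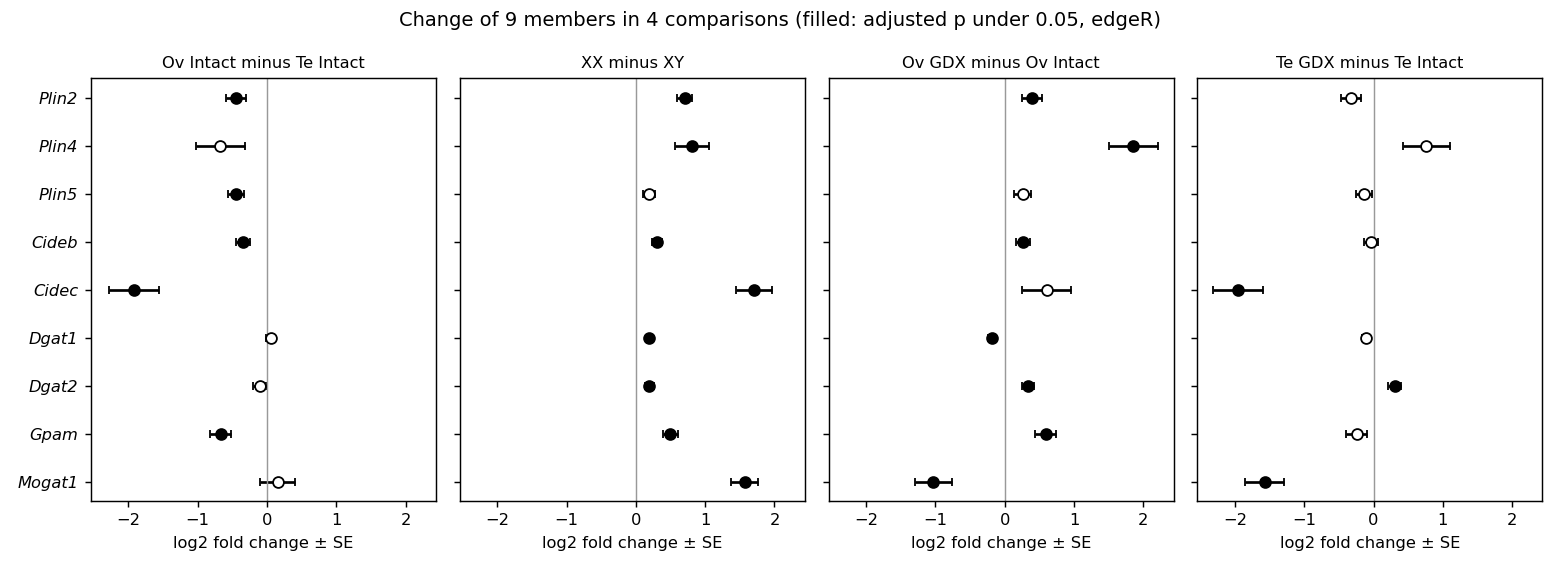
Log2 fold change ± SE of 9 members for gonads, chromosomes, ovariectomy and castration, filled where the adjusted p was under 0.05 (edgeR). In the panel of XX minus XY all 9 points lie above 0, from 0.19 to 1.70, and Cidec is below 0 in Ov minus Te (-1.92) and after castration.

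Between Intact and GDX mice, Cidec, Gpam and Plin2 changed unequally in Ov and Te mice. The difference of the castration and ovariectomy effects passed for 3 of 10 members (3 of 9 without Cidea), the change with castration being the lower in each. Of all tested genes 5.60% passed and 2.82% had a lower change, and the shares for 3 lists of related genes are given below. Both effects hold the longer diet and the later age, and whether these act alike in Ov and Te mice was not tested. The difference compares changes, not levels. It equals the gonadal effect minus the difference Ov GDX minus Te GDX given below, so it is not independent of the gonadal effect. It was -2.56 ± 0.50 SE on the log2 scale for Cidec (adjusted p = 0.000841, edgeR), -0.83 ± 0.21 for Gpam (adjusted p = 0.0139) and -0.72 ± 0.21 for Plin2 (adjusted p = 0.0292). Over the alternatives other than leaving out a mouse, the adjusted p for Cidec ranged from 1.40e-05 to 0.00355. Plin2 lost the call with library totals (adjusted p = 0.0795). The level of Gpam ran from 80.1 through a median of 136 to 302 CPM in Ov Intact, from 143 through 243 to 406 in Ov GDX, from 153 through 234 to 369 in Te Intact and from 148 through 203 to 297 CPM in Te GDX mice. For Plin2 the medians were 342 CPM in Ov Intact, 491 in Ov GDX, 450 in Te Intact and 360 CPM in Te GDX mice. The former gonad after GDX, Ov GDX minus Te GDX, passed for 0 members (1 at an unadjusted p under 0.05, Mogat1, log2 fold change 0.69), where 0.0908% of all tested genes passed, and DESeq2 also called 0 members. For Cidec that difference was 0.64 with a 95% interval of -0.06 to 1.35 on the log2 scale.

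**Figure D4:**
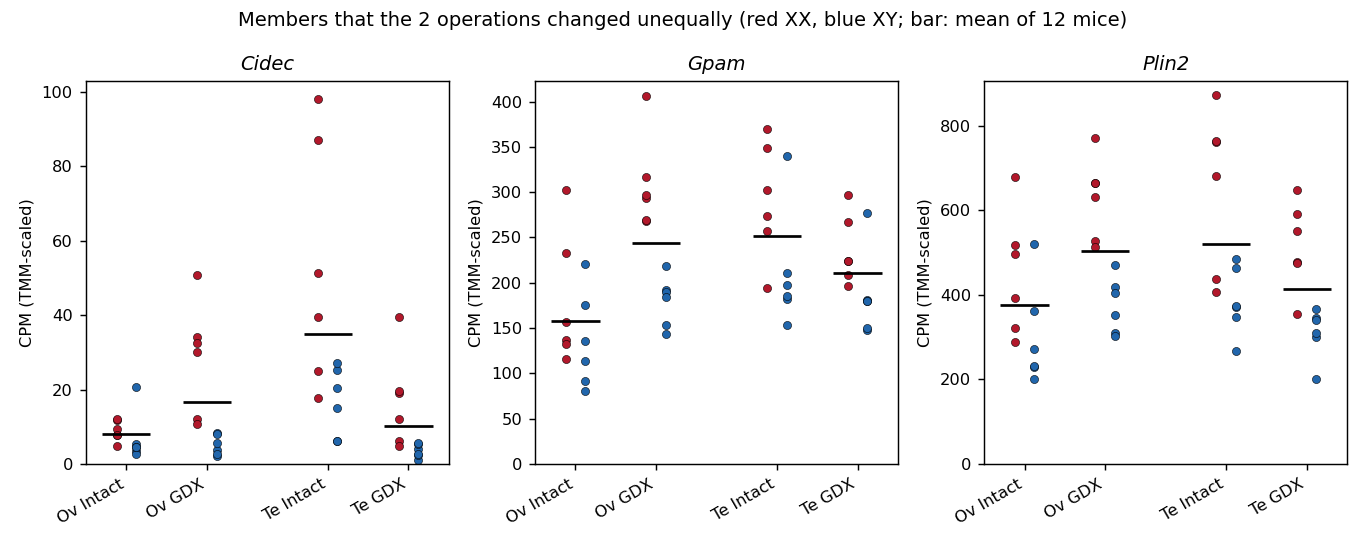
Level of Cidec, Gpam and Plin2 in TMM-scaled CPM in each mouse, by gonad and operation, with red points for XX, blue points for XY and a bar for the mean of 12 mice. The mean of Cidec goes from 7.93 to 16.7 CPM between Ov Intact and Ov GDX and from 34.9 to 10.2 CPM between Te Intact and Te GDX.

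The chromosomal effect asks how 24 XX differ from 24 XY mice over both gonads and both cohorts. Members from the coat, the fusion step and the synthesis route were higher in XX: 9 of 10 passed, all of them higher in XX, against 36.7% of the tested genes, 21.9% being higher and 14.8% lower. Library totals gave 1208 higher and 3081 lower genes, against 3382 and 2275 with TMM, and 7 members, all higher in XX. Without Cidea 8 of 9 members passed. The median log2 fold change was 0.60 over the members and 0.05 over all tested genes. Plin5 did not pass (0.19 ± 0.08 SE, adjusted p = 0.0784, edgeR).

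Cidec was 3.26-fold higher in XX (log2 fold change 1.70 ± 0.25 SE, adjusted p = 4.43e-07, edgeR). Its level ran from 4.72 through a median of 18.3 to 98.1 CPM in XX and from 0.997 through 5.31 to 27.0 CPM in XY mice, and 9 of 24 XX mice were above every XY mouse. Mogat1 was 2.97-fold higher (1.57 ± 0.19 SE, adjusted p = 5.65e-09, edgeR), with 1.91 through a median of 6.75 to 13.4 CPM in XX and 0.747 through 1.85 to 10.04 CPM in XY. A protein-coding gene overlaps Mogat1 by 973 bases on the opposite strand and had 278 reads over all 48 mice. Plin2 was 1.63-fold higher (0.70 ± 0.10 SE, adjusted p = 3.82e-07, edgeR), and 13 of 24 XX mice were above every XY mouse, the highest such count among the members. Plin4 was 1.76-fold higher (0.81 ± 0.24 SE, adjusted p = 0.00724, edgeR) and Gpam 1.41-fold (0.50 ± 0.11, adjusted p = 0.000231). Cidea had 427 reads in XX mice, 372 of them in XX Te Intact, and 82 in XY mice, a pooled ratio of 5.46 (95% counting interval, 4.30 to 7.0). Its adjusted p was 0.0197 in edgeR's test and rose to 0.0509 without XX Ov Intact replicate 3. These values are a description, since the filter let Cidea in through XX Te Intact. Within Intact mice the adjusted p for Cidea was 0.374 in edgeR's test. Cideb (1.23-fold), Dgat1 (1.15-fold) and Dgat2 (1.14-fold) differed by small amounts, and with library totals Cideb (adjusted p = 0.0659) and Dgat2 (adjusted p = 0.429) did not pass. Dgat2 also lost the call without XY Te Intact replicate 3 or XY Ov Intact replicate 6.

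Within the GDX cohort, 9 of 10 members passed (8 of 9 without Cidea), all higher in XX, where 34.3% of all tested genes passed and 19.5% were higher, and Dgat2 did not (adjusted p = 0.0621, edgeR). Mogat1 was 4.16-fold (log2 fold change 2.06 ± 0.29 SE, adjusted p = 1.24e-07, edgeR) and Cidec 5.22-fold higher (2.38 ± 0.37, adjusted p = 1.12e-06). For Cidec, 10 of 12 XX GDX mice were above every XY GDX mouse, and for Plin2 11 of 12. Plin5 lost the call in 19 of 48 fits that left out a mouse, Plin4 without XY Te GDX replicate 1 or XX Te GDX replicate 3, and Cidea without XX Te GDX replicate 3. Within the Intact cohort, 3 of 10 passed (3 of 9 without Cidea), all higher in XX, where 10.7% of all tested genes passed and 4.27% were higher: Mogat1 (1.08 ± 0.26 SE), Plin2 (0.67 ± 0.15) and Cidec (1.03 ± 0.35, adjusted p = 0.0499, edgeR), and Cidec lost the call in 34 of the 48 fits that each left out a mouse. The difference between the cohorts passed for 0 members (3 at an unadjusted p under 0.05: Dgat1, Cidec and Mogat1) by edgeR and for 0 by DESeq2, where 2.12% of all tested genes passed, so the larger effects in GDX mice are not shown to differ from those in Intact mice. For Mogat1 the difference was 0.98 with a 95% interval of 0.23 to 1.72 and an adjusted p of 0.185 in edgeR's test. The gonadal effect was not shown to differ between XX and XY Intact mice either: 0 members passed, 0 at an unadjusted p under 0.05, where 0% of the tested genes passed by edgeR (989 at an unadjusted p under 0.05, and 2 by DESeq2) and DESeq2 called 0 members.

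Scaling factors and cell markers moved with the chromosomes too. The TMM factor had a median of 1.02 in XX GDX and 1.15 in XY GDX mice, and with library totals in place of TMM 5 members passed in GDX mice (Plin2, Cidea, Cidec, Dgat1 and Mogat1), all higher in XX, beside 789 higher and 3406 lower genes in all, against 3001 and 2287 with TMM. With the share of reads outside genes as a covariate within cohorts, 8 members passed in GDX mice, Plin5 and Cidea losing the call and Dgat2 gaining it. Of 6 Kupffer cell and macrophage markers 5 were lower in XX over both cohorts, their sum being 132 to 326 CPM in XX GDX and 280 to 779 CPM in XY GDX mice. All 4 neutrophil markers were lower in XX (0.0786 to 2.06 CPM summed in XX GDX, 1.47 to 70.3 CPM in XY GDX), as were all 4 B and T cell markers (1.10 to 4.73 against 2.79 to 7.92 CPM). Of the 5 hepatocyte markers 1 was higher in XX, as was 1 of 4 cholangiocyte markers. No marker of sinusoidal endothelium (4 tested), of stellate cells and fibroblasts (4 tested) or of adipocytes (2 tested) passed. These counts are to be read against the 36.7% of all tested genes that passed in the chromosomal effect. The part of the cells in the members' levels was not tested.

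Plin2, Plin4 and Cidec moved together among mice of the same group. After group means were taken out, 13 of 45 pairs in the 24 Intact mice and 14 of 45 in the 24 GDX mice passed an adjusted p of 0.05 over all 90 pairs (two-sided permutation within groups, 100000 resamples). Of these 11 and 13 had a positive r, 2 and 1 a negative r, and the median r over the 45 pairs was 0.23 and 0.33. Those that passed include Cidea with Plin2, Plin4 and Cidec in Intact mice, and Cidea with Cidec, Dgat2 and Mogat1 in GDX mice. Plin2 and Plin4 had the highest r of the Intact mice (0.87, Spearman's rho 0.82) and 0.88 (rho 0.82) in GDX mice, each r with a permutation p of 1e-05, the smallest these permutations can give, and an adjusted p of 0.000225. The permutation p of rho were 2e-05 and 3e-05. Without the 2 mice farthest out in Plin2, r was 0.81 and 0.77. Plin2 and Cidec reached 0.75 (rho 0.73, p = 0.00014, adjusted 0.00140) in Intact and 0.88 (rho 0.83, p = 1e-05, adjusted 0.000225) in GDX mice by permutation, and 0.67 and 0.84 without those 2 mice. Plin4 and Cidec gave 0.70 (rho 0.64, adjusted permutation p of rho 0.00567) and 0.82 (rho 0.76, adjusted permutation p of rho 0.0018).

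Some pairs passed by r in 1 cohort, and the difference between cohorts was not tested. Gpam followed Plin4 (r = 0.82, rho 0.76, adjusted permutation p = 0.000360) and Plin2 (r = 0.79) in Intact mice, with r of 0.53 and 0.41 in GDX mice. By rho, Gpam with Plin4 passed in GDX mice as well (rho 0.58, adjusted permutation p of rho 0.0273). Mogat1 followed Cidec in GDX mice (r = 0.77, rho 0.82, adjusted permutation p = 0.000562), with r of 0.43 in Intact mice. Dgat1 and Dgat2, which are unrelated in sequence and share only their reaction, had r of 0.72 (rho 0.72, adjusted permutation p = 0.000450) in GDX and -0.13 in Intact mice, which became 0.46 and 0.24 with library totals. The negative r of Dgat1 with Plin4 (-0.61) and Plin2 (-0.56) in Intact mice fell to 0.01 and 0.02 with library totals, so it depends on the scaling. Neither pair passed by rho (adjusted permutation p of rho 0.0530 and 0.0813). Cidea with Dgat2 in GDX mice was the other negative pair that passed by r (r = -0.59, adjusted permutation p = 0.0389), with r of -0.58 on library totals. Its rho of -0.57 did not pass (adjusted permutation p of rho 0.0535). Cidea had 0 reads in 15 of the 24 GDX mice and 55 reads over all 24, so this r rests on few mice with reads.

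**Figure D5:**
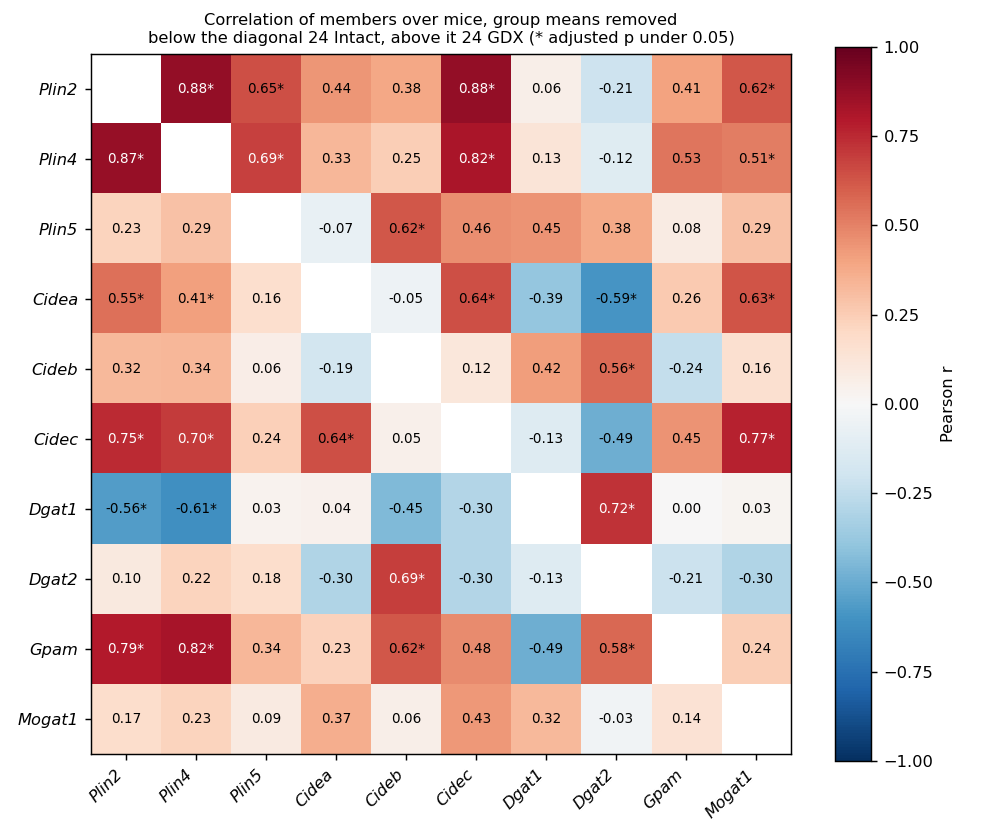
Pearson r between members over mice after group means were removed, below the diagonal for 24 Intact and above it for 24 GDX mice, with an asterisk where the adjusted permutation p was under 0.05. Plin2, Plin4 and Cidec form the block of high r in both cohorts, 0.70 to 0.88.

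Over all 48 mice, again with group means removed, the genes most like each member were named with r alone. Cidec was most like Apoa4 (r = 0.86), an apolipoprotein of triglyceride-rich particles, then Cgref1 and 2010003K11Rik (0.85 each). Mogat1 was most like Pnldc1 (0.86), Lgals1 (0.80) and Cd36 (0.74), a fatty acid transporter. Gpam was most like Cyb5r3 (0.90), Fads2 (0.89), a fatty acid desaturase, and Acacb (0.89), an acetyl-CoA carboxylase. Plin2 was most like Enc1 (0.87), Cntnap1 (0.86) and Prune (0.85), Plin4 like Ttc3, Pla2g6 and Abhd2 (0.83 each), and Cidea like Unc119 (0.75), Ifi27l2b (0.70) and Anxa2 (0.69). Plin5 was most like 1110003O08Rik (0.68), Cpt2 (0.63), the carnitine acyltransferase of mitochondrial fatty acid uptake, and Lace1 (0.61). Among the genes most like Cideb were Bckdha (0.88) and Sec16b (0.84), Dgat1 was most like Adk, Gle1 and Dhdh (0.79, 0.79 and 0.78), and Dgat2 like Cyp2d22, Hlf and Prodh (0.88, 0.88 and 0.87).

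The other genes of the pathway were counted from 3 lists, to be read against the 25.3%, 36.7%, 69.4% and 63.3% of all tested genes that passed for gonads, chromosomes, ovariectomy and castration. The shares that passed, in that order, were 52.9%, 70.6%, 82.4% and 64.7% for glycerolipid synthesis, 46.7%, 66.7%, 66.7% and 53.3% for the other droplet proteins and 33.3%, 91.7%, 75% and 66.7% for Pparg and fatty acid uptake. After castration the 3 shares lay within a few points of the background or, for the droplet proteins, below it. In the difference of the castration and ovariectomy effects 23.5%, 46.7% and 16.7% of these lists passed, against 5.60% of all tested genes. The change with castration was the lower in all 4 and 7 such genes of the first 2 lists, and in 1 of 2 in the third. Of 17 tested genes of glycerolipid synthesis (18 listed), 3 were higher and 6 lower in Ov, with Gpat3 at 0.61 ± 0.12 SE and Gpd1, which makes the glycerol-3-phosphate that Gpam acylates, at -0.87 ± 0.14 on the log2 scale. In the chromosomal effect 11 were higher and 1 lower in XX, with Gpat3 at 0.48 ± 0.08 SE and Agpat4 at -1.24 ± 0.13. After ovariectomy 10 rose and 4 fell, from Lpin1, a phosphatidate phosphatase (0.73 ± 0.24 SE), to Agpat5 (-0.77 ± 0.11), and after castration 4 rose and 7 fell, from Agpat4 (0.91 ± 0.19 SE) to Gpd1 (-0.84 ± 0.14).

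Of 15 other droplet proteins that were tested (17 listed), 7 were lower and 0 higher in Ov, from Fitm1 (-0.94 ± 0.15 SE), a protein that helps droplets bud, to Fitm2 (-0.20 ± 0.08), and 10 were higher and 0 lower in XX, from G0s2, an inhibitor of adipose triglyceride lipase (0.56 ± 0.13 SE), to Rab8a (0.08 ± 0.03). After ovariectomy 5 rose and 5 fell, from Lipe, the hormone-sensitive lipase (0.87 ± 0.13 SE), to Abhd5, the activator of adipose triglyceride lipase (-1.01 ± 0.12). After castration 0 rose and 8 fell, from Fitm1 (-1.48 ± 0.16 SE) to Rab8a (-0.13 ± 0.04). Of 12 genes around Pparg and fatty acid uptake, 2 were higher and 2 lower in Ov, from Vldlr (0.98 ± 0.16 SE) to Slc27a2 (-0.32 ± 0.08), and 8 were higher and 3 lower in XX, from Cd36 (0.56 ± 0.11 SE) to Lpl (-1.07 ± 0.19). After ovariectomy 5 rose and 4 fell, Fabp2 being lowest (-2.24 ± 0.25 SE), and after castration 3 rose and 5 fell, from Vldlr (0.86 ± 0.16 SE) to Fabp2 (-2.15 ± 0.25). Pparg itself, a nuclear receptor of fat storage, was lower in XX (-0.25 on the log2 scale, adjusted p = 0.0480, edgeR), and it was chosen for mention after its values were seen.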

How the data were processed

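Liver RNA of 48 FCG mice was sequenced, 1 library per mouse. The authors prepared polyadenylated RNA libraries, aligned the reads to GRCm39 with STAR (version 2.7.10a), and deposited whole-number read counts per gene, not normalized. The annotation release, the strand setting and any trimming are not given in the sources used here. Symbols were matched to 31020 of 55414 identifiers (56.0%), and 19554 genes had 0 reads in all mice. The rows that name no gene (reads unmapped, on several loci, outside genes or ambiguous) were left out of library sizes and tests, the share outside genes being 3.47% to 11.3%. Mice within groups differed beyond sampling noise in all 120 pairs (chi-square per gene 8.57 to 342), so each counted as 1 sample. Groups are those of the labels. Each mouse is a separate animal.

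The 48 mice entered a single model with 8 group means, fitted with edgeR 4.0.16 under R 4.3.3 (TMM, filterByExpr, robust quasi-likelihood F-test), with Benjamini-Hochberg adjustment over 15414 tested genes and a threshold of 0.05. Contrasts average XX and XY groups, or Ov and Te groups, with equal weight. SE are the log2 fold change divided by the root of F. Correlations used log2 CPM (prior count 2) minus the group mean, in Python (version 3.11.15, numpy 2.4.6, scipy 1.17.1, pandas 2.3.3), and plots matplotlib (version 3.10.9). Exact Poisson-based intervals and floors of 3 reads (0.150 to 0.230 CPM) cover counting error only. The fit was tested on simulated counts.

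Alternatives were DESeq2 size factors, library totals, DESeq2 1.42.0 with its Wald test, genes with any count, genes with 10 or more counts in all mice, the 47 mice that a panel of the paper shows, 1 surrogate variable from sva (version 3.50.0), the share of reads outside genes as a covariate, the compared groups alone and leaving out each mouse. The authors' own test was DESeq2 (version 1.36.0 in their processing notes).

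The members, the lists and the comparisons were chosen with earlier results of these data known. The text names all members, the highest and lowest passing gene of each list per effect, the 3 most alike genes of each member and genes that check the labels, except that 2 genes this rule selects are not reported here. Promoter entries were found for 7 of 10 members.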

Additional observations from a re-analysis of the deposited data

Results flagged for a closer look

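A mouse far from the other 5 of its group was flagged by Dixon's ratio, the gap to the nearest mouse over the range of the group, above its 95% critical value for 6 mice in 10 of 79 groups of a member. Chance flags about 1 in 20 groups only if values are normal and groups are separate. The CPM were not transformed and the members share mice, so an excess over that rate was not tested. XY Ov Intact replicate 2 was flagged for Plin4 (ratio 0.769, 45.9 CPM against 2.58 to 12.6 in the others) and for Cidec (0.854, 20.8 against 2.73 to 5.36 CPM). Gpam was flagged high in XY Te Intact replicate 5 (0.691, 340 CPM), XX Ov GDX replicate 4 (0.645, 406 CPM) and XY Te GDX replicate 4 (0.744, 277 CPM), and Mogat1 high in XY Ov GDX replicate 1 (0.670, 2.88 CPM) and XY Te GDX replicate 6 (0.725, 1.41 CPM). Cidea was flagged high in XY Te Intact replicate 3 (0.749, 47 reads against at most 14) and XY Ov GDX replicate 4 (1.0, 1 read against 0), and Cideb low in XX Te Intact replicate 2 (0.841, 25.3 against 34.9 to 36.7 CPM). Where a single mouse holds the only read of its group, the ratio is 1.0 by construction.

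The castration and ovariectomy effects differed by test for Cidec (-2.56 on the log2 scale, adjusted p = 0.000841, edgeR), Gpam (-0.83, adjusted p = 0.0139) and Plin2 (-0.72, adjusted p = 0.0292).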

How the results depend on the processing

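No paired analysis was possible because the labels give no replicate number that mice of different groups share. Of 957 values of single members under alternatives other than leaving out a mouse, 863 kept sign and call, 37 lost the call, 25 gained it and 32 changed sign, 7 of these having passed in the main setting and 25 passing under neither setting. Of 4800 values with a mouse left out, 4638 kept sign and call, 59 lost the call, 65 gained it and 38 changed sign, all of the latter passing under neither setting. Counts of members that passed moved by over 1.5 times with the share of reads outside genes as a covariate, to 0 in the ovariectomy and 0 in the castration effect, with library totals to 5 in GDX mice, and without the 2 mice farthest out on the x axis to 16 pairs. That covariate, which separates the cohorts, turned the log2 fold changes after ovariectomy of Dgat1 (0.33), Dgat2 (-0.28), Gpam (-0.36) and Mogat1 (0.44) and after castration of Cidea (0.57) and Dgat2 (-0.33), which had passed without it, and of Plin4 (-0.98), Plin5 (0.93) and Dgat1 (0.42), which had not, with no value passing after the turn. Library totals turned Dgat1 after ovariectomy (0.044) and, among values that had not passed, Plin5 (0.062), Cideb (0.16) and Dgat1 (0.096) after castration. The cause was not tested. Over all tested genes, that covariate took the calls after ovariectomy from 10695 to 20 and after castration from 9759 to 1161. Counts of all genes that passed also moved by over 1.5 times in the interaction of chromosomes with GDX (327, against 545 with library totals, 661 by DESeq2, 109 with a surrogate variable and 2 with either covariate), in the difference of the operations (863, against 506 without the filter, 1893 with a surrogate variable and 1587 with either covariate), in the chromosomal effect in GDX mice (5288, against 3491 with 10 counts in every mouse) and in Intact mice (1648, against 940 with 10 counts in every mouse and 819 with those groups alone), in the gonadal effect (3907, against 1694 with those groups alone) and in the former gonad (14, against 25 by DESeq2, 7 with 10 counts in every mouse and 33 with those groups alone). Without the filter the split of higher and lower genes in the chromosomal effect was 1868 and 2804, in GDX mice 1375 and 3032 and in Intact mice 273 and 934, and with library totals it was 281 and 864 in Intact mice, against 658 and 990. Leaving out single mice, the counts ranged from 6 to 7 in the gonadal, 8 to 10 in the chromosomal, 7 to 9 in the ovariectomy and 4 to 6 in the castration effect, from 3 to 4 in the difference of the operations, from 2 to 5 in the chromosomal effect in Intact mice (5 without XY Ov Intact replicate 2, XY Te Intact replicate 5 or XX Ov Intact replicate 6), from 7 to 10 in that in GDX mice, and were 0 in the former gonad and both interactions. Correlations on library totals passed for 29 of 90 pairs, against 27 with TMM. Cidea, at 0 to 124 reads, is limited by depth.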
